A study of Mus musculus with 6 samples.

Results

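The transcripts described here are those of the interferon-induced antiviral genes Oas1a, Oas2, Oas3, Oasl1, Oasl2, Ifit1, Ifit2, Ifit3 and Rsad2 in mouse colon. They were chosen by gene symbol from a set of 10, of which 9 had a row among the 16906 genes of the deposited table; Mx2 was not analysed here. RNA was sequenced from 3 normal and 3 TNBS colon samples. All were wild-type colon tissue of the strain labelled C57, from male C57BL/6J mice 6 to 8 weeks old and 20 to 22 g in weight. The normal group is described by normal feeding alone. The TNBS group received trinitrobenzenesulfonic acid, a hapten that provokes acute inflammation of the gut wall, into the colon at 5% w/v through the anus, and no vehicle group is used here, so the procedure and the hapten cannot be told apart. Separate animals are not numbered in the labels, and the p-values below speak only of the spread among these 6 libraries, which may be technical.

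Type I and type III interferons bind receptors that signal through the kinases Jak1 and Tyk2. The kinases activate a complex that holds Stat2 and Irf9 and binds the interferon-stimulated response element (ISRE) in the promoters of antiviral genes. Oas enzymes sense double-stranded RNA and make oligoadenylates, signalling molecules of antiviral defence. Ifit proteins bind foreign RNA, Mx proteins are GTPases that trap viral components, and Rsad2 (viperin) makes a nucleotide that stops viral RNA synthesis. In the healthy gut such genes are known to be kept active in the epithelium at a low level by interferon signalling that the resident microbes sustain.

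The libraries held 15185569 to 23380492 counts each. Some TNBS libraries stood apart from their labels or from the normal group. All donors are labelled male, yet the sum of 4 Y-linked genes (Ddx3y, Uty, Kdm5d and Eif2s3y), as a percent of its mean over the normal group, was 0.697% for TNBS replicate 1 and 38.2% for TNBS replicate 3, against 103% for TNBS replicate 2. Hoxb13, which marks the most distal gut, reached 7.37 to 106 CPM (counts scaled to library size) in normal colon, 21.4 CPM for TNBS replicate 1, 0.194 CPM for TNBS replicate 2 and 0.308 CPM for TNBS replicate 3. The share of mitochondrially encoded transcripts was 0.563% to 0.951% in normal and 0.755% to 3.92% in TNBS colon. Counts of the antiviral genes with and without each of these libraries are therefore given below.

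The antiviral transcripts were lower in TNBS colon. Of the 9 genes, 6 fell (Oas1a, Oas2, Oas3, Oasl1, Oasl2 and Ifit1) and none rose at an adjusted p under 0.05 in edgeR's quasi-likelihood test, where 1.14% of the 14126 genes tested were called lower and 0.906% higher. All 9 passed the filter on low counts, with 31 to 10061 counts per gene and library, and all had a negative log2 fold change, with a median of -1.85 beside 0.01 over all genes tested. At an unadjusted p under 0.05 all 9 were lower and 0 higher, where 10.2% of all genes tested were lower and 10.8% higher. DESeq2 (4.47% of all genes higher) and limma-voom (0.566%) also called 0 of the 9 higher. For 8 of 9 genes every TNBS library lay below every normal library, against 14.8% of all tested genes apart in that direction. Summed over the 9 genes, the level was 742 to 1210 CPM in the normal and 163 to 293 CPM in the TNBS libraries. In whole tissue, fewer cells of a type and less RNA per cell cannot be told apart.

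**Figure D1:**
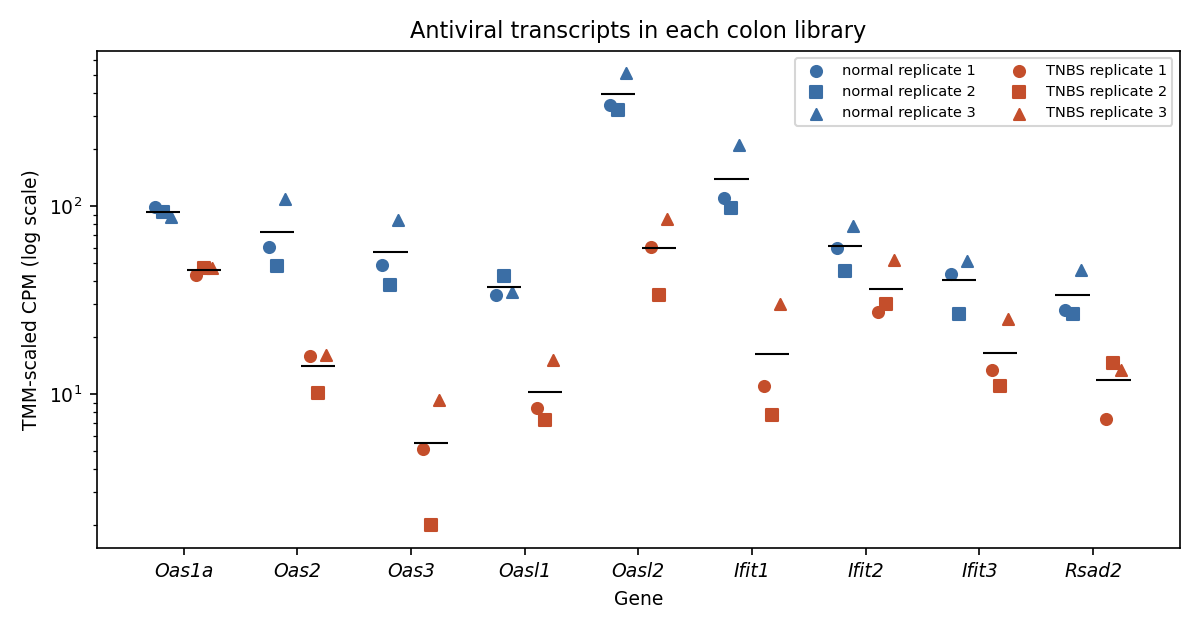
CPM scaled by the trimmed mean of M-values (TMM), on a log axis, of each antiviral gene in each of the 6 libraries; horizontal bars are group means and the marker shape gives the replicate number. For 8 of 9 genes the TNBS points lie below all normal points, and Ifit2 is the exception.

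Promoter windows of RefSeq (build GRCm38.p6, 250 bases before to 50 after an annotated start) were at hand for 8 of the 9 genes, all but Oas2. The ISRE core, searched on both strands as GAAA, any 2 bases and GAAA again, occurred in 5 of these 8, and in 3.99% of the 27025 genes that have a window (3.44% of 32851 windows). The 5 windows that hold it are shown because they carry the element that these genes share, with its letters in capitals and read 5′ to 3′ on the gene's strand. They lie at chr19:34640639-34640938 (plus strand), chr19:34583279-34583578 (plus strand), chr5:120777610-120777909 (minus strand), chr5:120907476-120907775 (minus strand) and chr12:26456403-26456702 (minus strand).
Ifit1: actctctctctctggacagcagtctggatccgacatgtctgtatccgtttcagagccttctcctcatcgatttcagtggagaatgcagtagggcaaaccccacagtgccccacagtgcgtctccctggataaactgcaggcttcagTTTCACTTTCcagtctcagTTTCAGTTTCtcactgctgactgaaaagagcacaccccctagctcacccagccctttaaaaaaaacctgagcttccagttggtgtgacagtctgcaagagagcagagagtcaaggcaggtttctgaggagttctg
Ifit3: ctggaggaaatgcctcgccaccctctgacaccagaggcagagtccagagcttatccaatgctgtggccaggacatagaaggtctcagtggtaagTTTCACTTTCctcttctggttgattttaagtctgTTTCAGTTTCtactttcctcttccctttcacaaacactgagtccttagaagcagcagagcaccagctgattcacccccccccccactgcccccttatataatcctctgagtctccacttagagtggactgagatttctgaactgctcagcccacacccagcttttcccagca
Oas3: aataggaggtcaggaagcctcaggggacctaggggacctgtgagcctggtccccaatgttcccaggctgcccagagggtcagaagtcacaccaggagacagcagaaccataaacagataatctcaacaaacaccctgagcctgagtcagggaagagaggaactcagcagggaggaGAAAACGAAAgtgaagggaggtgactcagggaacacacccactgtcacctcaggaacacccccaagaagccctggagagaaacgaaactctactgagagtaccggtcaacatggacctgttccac
Oas1a: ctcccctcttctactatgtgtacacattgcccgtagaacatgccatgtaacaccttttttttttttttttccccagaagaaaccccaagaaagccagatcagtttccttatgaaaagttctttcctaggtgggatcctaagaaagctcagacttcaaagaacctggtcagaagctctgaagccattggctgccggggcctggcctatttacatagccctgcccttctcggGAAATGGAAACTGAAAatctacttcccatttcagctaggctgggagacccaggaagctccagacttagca
Rsad2: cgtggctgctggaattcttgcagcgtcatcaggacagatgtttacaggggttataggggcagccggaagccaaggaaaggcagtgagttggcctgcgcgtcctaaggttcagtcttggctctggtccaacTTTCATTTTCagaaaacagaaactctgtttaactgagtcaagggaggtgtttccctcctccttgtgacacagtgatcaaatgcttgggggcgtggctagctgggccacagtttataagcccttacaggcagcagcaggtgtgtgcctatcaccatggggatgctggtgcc
Ifit1 and Ifit3 each hold 2 separate matches, all in the reverse orientation, with first bases at -104 and -85 for Ifit1 and at -156 and -122 for Ifit3, counted from the start. Oas1a holds 2 matches that overlap each other at -20 and -14, Oas3 has 1 at -75, and Rsad2 has 1 in the reverse orientation at -120. The element for interferon-gamma signalling, the GAS element TTCNNNGAA, which reads alike on both strands, occurred in 2 of the 8 genes (Oas1a and Ifit2) and in 9.55% of all genes, and overlapped no ISRE match. A match of letters is a description of the window and no measure of binding.

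The Oas synthetases are neighbours on mouse chromosome 5 of the mm10 build. Oas1a (ENSMUSG00000052776, chr5:120896256-120907521), an enzymatically active synthetase, was at 98.5, 93.3 and 87.4 CPM in normal colon and at 43.2, 46.7 and 47.0 CPM in TNBS colon. The groups did not overlap, and libraries within a group were close together. Its log2 fold change was -1.03 (SE 0.16, edgeR adjusted p = 0.0207), a level 2.04-fold lower with a 95% interval of 1.59 to 2.61. Oas2 (ENSMUSG00000032690, chr5:120730333-120749853), a larger synthetase, was at 60.6, 47.9 and 109 CPM in normal and at 15.99, 10.15 and 16.16 CPM in TNBS colon. Every TNBS value lay well under the lowest normal one, and normal replicate 3 was the highest. The log2 fold change of Oas2 was -2.36 (SE 0.34, adjusted p = 0.0169), or 5.12-fold lower (95% interval 2.998 to 8.757). Oas3 (ENSMUSG00000032661, chr5:120753098-120777661) is the longest synthetase. It was at 48.6, 37.9 and 84.4 CPM in normal and at 5.089, 2.004 and 9.288 CPM in TNBS colon, with 31 counts in TNBS replicate 2, the fewest of any of these genes. Its change was the largest of the 9, -3.37 on the log2 scale (SE 0.53, adjusted p = 0.0235), or 10.4-fold lower (95% interval 4.51 to 23.8).

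The Oas-like genes lie next to each other in another stretch of chromosome 5. Oasl1 (ENSMUSG00000041827, chr5:114923240-114937915), which lacks synthetase activity and in mice restrains translation of the Irf7 message, was at 33.6, 42.5 and 34.9 CPM in normal and at 8.41, 7.24 and 15.1 CPM in TNBS colon. TNBS replicate 3 was the highest of its group and still under every normal library. The log2 fold change was -1.85 (SE 0.31, adjusted p = 0.0298), or 3.60-fold lower. Oasl2 (ENSMUSG00000029561, chr5:114896936-114912234), which joins a synthetase to ubiquitin-like domains, had the highest counts of the set. It was at 345, 325 and 508 CPM in normal and at 60.6, 33.5 and 85.1 CPM in TNBS colon, without overlap. Its log2 fold change was -2.72 (SE 0.35, adjusted p = 0.0128), or 6.57-fold lower (95% interval 3.80 to 11.4).

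The Ifit genes are clustered on chromosome 19. Ifit1 (ENSMUSG00000034459, chr19:34640871-34650009), which binds RNA that lacks the methylated cap of host messages, was at 110, 97.6 and 212 CPM in normal and at 11.04, 7.693 and 30.23 CPM in TNBS colon. The groups were far apart, with a log2 fold change of -3.09 (SE 0.53, edgeR adjusted p = 0.0300), or 8.54-fold lower (95% interval 3.74 to 19.5). Ifit2 (ENSMUSG00000045932, chr19:34550694-34576419), which binds AU-rich double-stranded RNA, was at 59.7, 45.2 and 78.4 CPM in normal and at 27.4, 30.2 and 51.4 CPM in TNBS colon. TNBS replicate 3 lay above normal replicate 2, so its groups overlapped. Its log2 fold change was -0.75 (SE 0.30, adjusted p = 0.196), with a 95% interval from 1.06-fold to 2.68-fold lower. Ifit3 (ENSMUSG00000074896, chr19:34583531-34588731), which in human cells stabilises the binding of RNA by IFIT1, was at 43.5, 26.7 and 51.2 CPM in normal and at 13.4, 10.99 and 24.94 CPM in TNBS colon. Its groups did not overlap, although TNBS replicate 3 came close to normal replicate 2, and the log2 fold change of -1.30 (SE 0.36, adjusted p = 0.103) did not pass.

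Rsad2 (ENSMUSG00000020641, chr12:26442746-26456452) was at 28.1, 26.6 and 45.8 CPM in normal and at 7.36, 14.6 and 13.4 CPM in TNBS colon. Here TNBS replicate 1 was the lowest, and no TNBS library reached a normal one. The log2 fold change was -1.51 (SE 0.33, adjusted p = 0.0573), or 2.84-fold lower (95% interval 1.69 to 4.78), which did not pass. Its neighbour Cmpk2, a mitochondrial nucleotide kinase that supplies the substrate of Rsad2, had a log2 fold change of -1.13 (adjusted p = 0.0678). The exact two-sided permutation test of 6 values gave p = 0.1 for 8 of the 9 genes, the smallest value that 3 against 3 allows, and p = 0.2 for Ifit2.

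**Figure D2:**
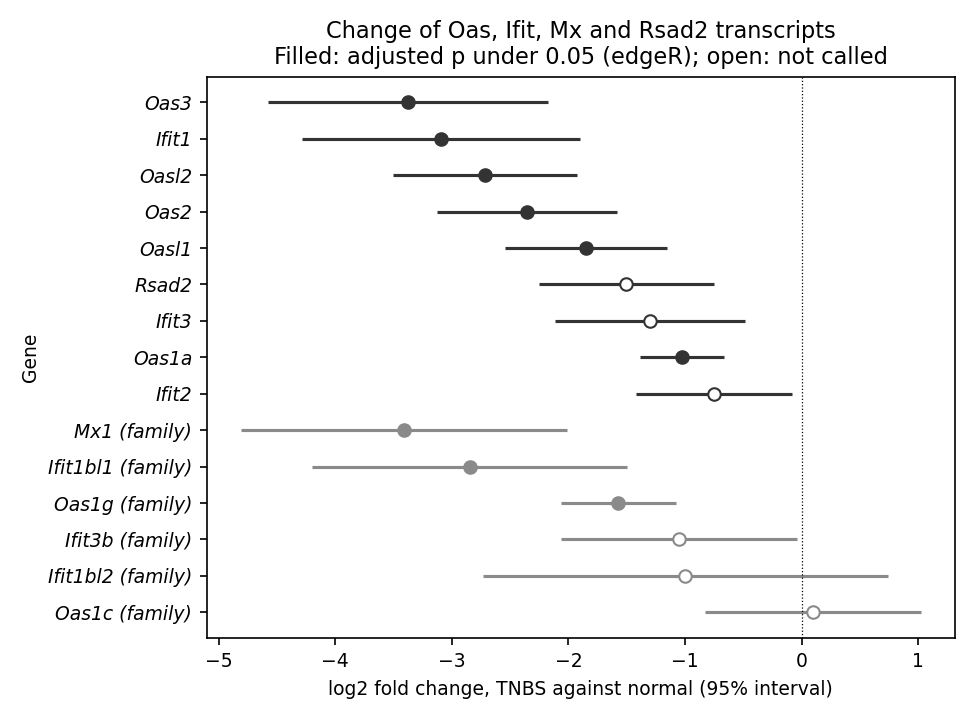
Log2 fold change of TNBS against normal colon with its 95% interval, for the 9 genes (black) and the 6 other tested genes of the Oas, Ifit and Mx families (grey); filled points passed edgeR's test. Values run from -3.37 for Oas3 to -0.75 for Ifit2 among the 9 genes, and from -3.41 for Mx1 to 0.10 for Oas1c among the relatives.

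Per kilobase of exon sequence, which allows levels to be set between genes, Oasl2, Ifit1 and Oas1a were the most abundant in normal colon, at 61.6 ± 15.7, 52.6 ± 23.6 and 49.4 ± 2.96 CPM per kilobase (SD, n = 3). The libraries of these 3 genes overlapped, and all lay above those of Ifit3 (23.2 ± 7.21). Oas2, Ifit2 and Oasl1 followed at means of 16.3, 15.6 and 14.2 with overlapping libraries, and Oas3 and Rsad2 were the lowest at 8.06 and 7.72. In TNBS colon the order was another. Oas1a led at 24.2 ± 1.11 CPM per kilobase (SD, n = 3), above every library of the other 8 genes. Ifit3, Oasl2 and Ifit2 had means of 9.42, 9.37 and 9.25, Ifit1 was at 6.15 ± 4.58, and Oas3 was the lowest at 0.772 ± 0.517.

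Ratios of counts within a library do not depend on how libraries are scaled. They are given for 4 pairs, chosen after their values were seen, as a description with no test. The log2 ratio of Ifit1 to Ifit2 was 0.88, 1.11 and 1.43 in the normal libraries and -1.31, -1.97 and -0.77 in the TNBS libraries, above 0 in every normal and below 0 in every TNBS library. For Oas3 to Oas2 the log2 ratio was -0.32, -0.34 and -0.37 in normal and -1.65, -2.34 and -0.80 in TNBS colon, again apart. Oasl2 to Oasl1 went from a mean log2 ratio of 3.39 to 2.52 without overlap. Rsad2 to Cmpk2, at means of -0.10 and -0.47, overlapped between groups.

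**Figure D3:**
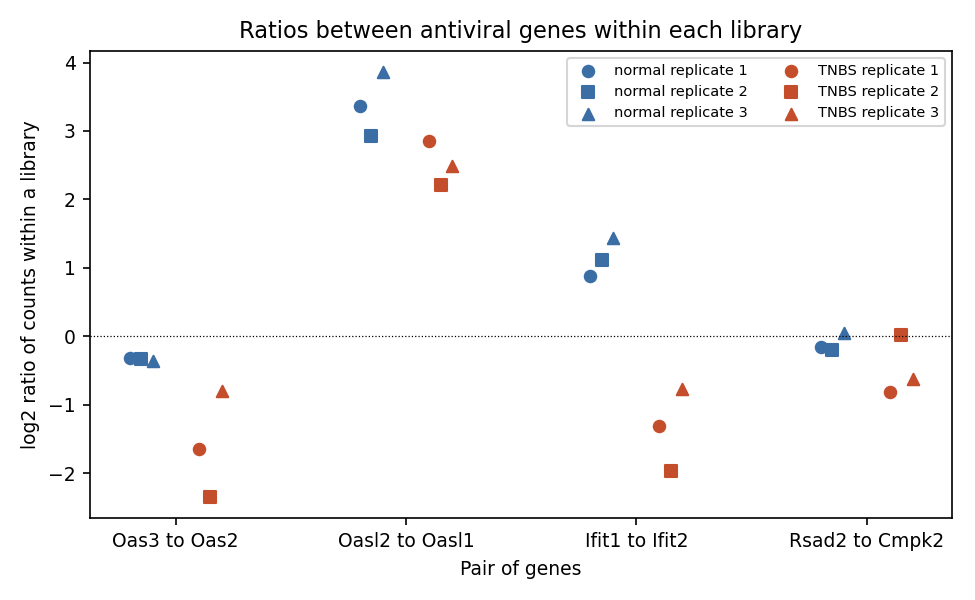
Log2 ratio of the counts of 4 gene pairs within each library, normal in blue and TNBS in red, with the replicate number as marker shape. The groups are apart for Oas3 to Oas2, Oasl2 to Oasl1 and Ifit1 to Ifit2, and overlap for Rsad2 to Cmpk2.

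The TNBS libraries were not equally low. As a percent of the normal mean, the median of the 9 genes was 22.1%, 19.6% and 40.2% for TNBS replicates 1, 2 and 3. TNBS replicate 3 was the highest of its group for 8 of 9 genes, and TNBS replicate 2 was the lowest for 6. All 9 genes were below every normal library in TNBS replicates 1 and 2, and 8 of 9 in TNBS replicate 3. The share of all genes tested that lay so in a single TNBS library was not computed. With TNBS replicate 2, whose Y-linked level matched its label, as the only TNBS library, 5 of 9 genes were called lower (3.21% of all genes tested) with a median of -2.36 on the log2 scale. With TNBS replicate 1, whose Hox levels lay nearest to the normal ones, as the only TNBS library, 2 were called (0.221% of all genes) and the median was -2.17. Both fits take the spread from the normal group for the lone library.

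The number of calls moved with single libraries. Without TNBS replicate 1, 7 of 9 genes were called lower (3.97% of all genes tested), without TNBS replicate 2, 2 genes (0.214%), and without TNBS replicate 3, 5 genes (0.353%). Leaving out normal replicate 1 left 2 genes called (0.312% of all genes), leaving out normal replicate 3 left 1 (0.207%), and leaving out normal replicate 2 left 0 (0.0759%), with all 9 lower at an unadjusted p under 0.05 (7.54% of all genes). With all 6 libraries, the same 6 genes were called with RLE scaling (1.19% of all genes), total count scaling (0.722%) and limma-voom (1.03%). Rsad2 was called besides with no filter on low counts (1.24%), and Rsad2 and Ifit3 besides with DESeq2 (4.32%). With neighbouring relatives summed 6 were called (1.13%), but the calls for Oas1a and Ifit1 were then those of their sums with relatives. Through the 6 fits without a library the log2 fold changes of all 9 genes stayed negative, with medians over the genes from -2.24 to -1.68.

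**Figure D4:**
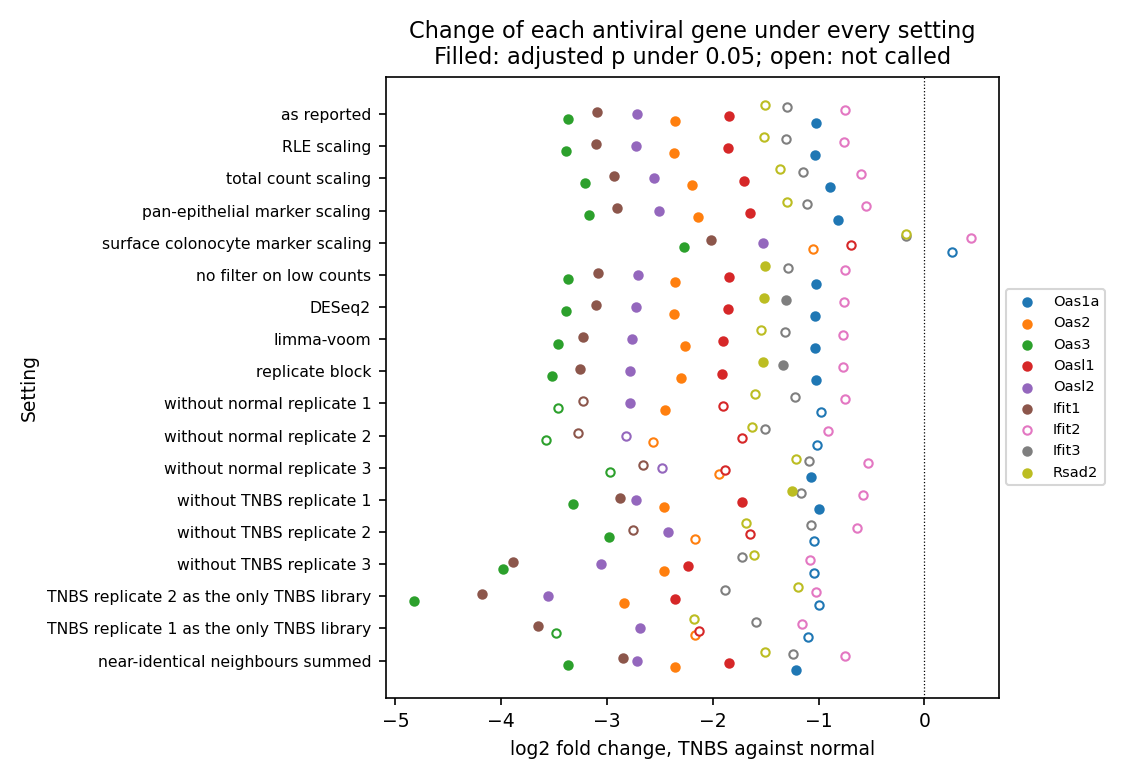
Log2 fold change of each of the 9 genes as reported and under 17 other settings, 1 setting a row; filled points passed the test of that fit. Points right of 0 appear only for Oas1a and Ifit2 with counts scaled to surface colonocyte markers, at 0.26 and 0.44.

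Of 6 other tested genes of the same families, 3 fell and none rose, with a median log2 fold change of -1.31. Oas1g, the closest relative of Oas1a, went from 58.7 ± 5.63 to 19.7 ± 4.14 CPM (SD, n = 3; edgeR adjusted p = 0.0156), and Ifit1bl1, an Ifit1-like gene, from 360 ± 108 to 49.99 ± 45.33 CPM (adjusted p = 0.0494). Mx1, a dynamin-like GTPase whose gene carries a deletion in C57BL/6 mice, was at 5.54, 5.53 and 11.6 CPM in normal and at 1.05, 0.259 and 0.770 CPM in TNBS colon (adjusted p = 0.0345). Ifit3b, Ifit1bl2 and Oas1c had log2 fold changes of -1.05, -0.998 and 0.10 (adjusted p = 0.224, 0.481 and 0.911), and Oas1c, at 5.55 to 8.33 CPM in normal and 5.09 to 10.7 CPM in TNBS colon, was the only tested gene of the families with a positive value. Oas1d and Oas1h had at most 10 counts in any library and were not tested. Of the stretches of 50 bases in the transcripts of Oas1a, 57.6% also occur in Oas1g, and 51.2% of those of Ifit3 occur in Ifit3b, so the split of reads within these pairs is uncertain. Fitted as sums, Oas1a with Oas1g had a log2 fold change of -1.22 (adjusted p = 0.0124) and Ifit3 with Ifit3b -1.25 (adjusted p = 0.110). The sum of Ifit1, Ifit1bl1 and Ifit1bl2 was at -2.85 (edgeR adjusted p = 0.0449). Of the Ifit1 stretches just 7.1% occur in other genes, and Ifit1 itself was at 140 CPM in normal colon, below Ifit1bl1. That sum is therefore no check on Ifit1.

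Of interferon-induced effectors outside these families, all 25 tested had negative log2 fold changes, 6 fell and none rose, and the median was -0.79. The 5 with the smallest p were Herc6 (-2.15), Xaf1 (-1.31), Zbp1 (-1.66), Trim30a (-1.66) and Rtp4 (-1.89), with adjusted p from 0.0237 to 0.0319. Zbp1 senses left-handed nucleic acid and Herc6 is the mouse ligase for the ubiquitin-like protein Isg15. Of 5 genes of Isg15 conjugation, 3 fell: Isg15 itself at -2.80 (adjusted p = 0.00698), its protease Usp18 at -2.46 (adjusted p = 0.0156) and Herc6.

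Upstream of these genes the picture was mixed. Among 13 genes of interferon receptors and JAK-STAT signalling, 2 fell and none rose, with a median of -0.17. The 2 were the ISRE-binding factors Stat2, from 138 ± 16.4 to 70.9 ± 9.26 CPM (SD, n = 3; edgeR adjusted p = 0.0360), and Irf9, from 105.4 ± 11.03 to 54.4 ± 7.06 CPM (adjusted p = 0.0360). The receptor subunits Ifnar1, Ifnar2 and Ifnlr1, picked for their role, had log2 fold changes of 0.58, 1.05 and 0.13 and did not pass (adjusted p from 0.0947 to 0.781). Of 19 sensors and factors of interferon induction, 3 fell and none rose (median -0.30). They were the helicases Dhx58 (LGP2) and Ifih1 (MDA5), at -1.36 and -1.57, and Irf7, which drives interferon genes, at -1.73 (adjusted p from 0.0215 to 0.0371). Of the interferon genes listed only Ifng had a row, with 0 counts in the normal libraries and 1, 1 and 12 in the TNBS libraries, too few to be tested; the others were not analysed here. Genes induced mainly by interferon-gamma had 1 of 13 higher, none lower and a median of 0.43. Iigp1, an immunity-related GTPase, went from 39.71 ± 11.02 to 141 ± 59.9 CPM (adjusted p = 0.0328). Whether these lists differ from the antiviral genes was not tested.

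**Figure D5:**
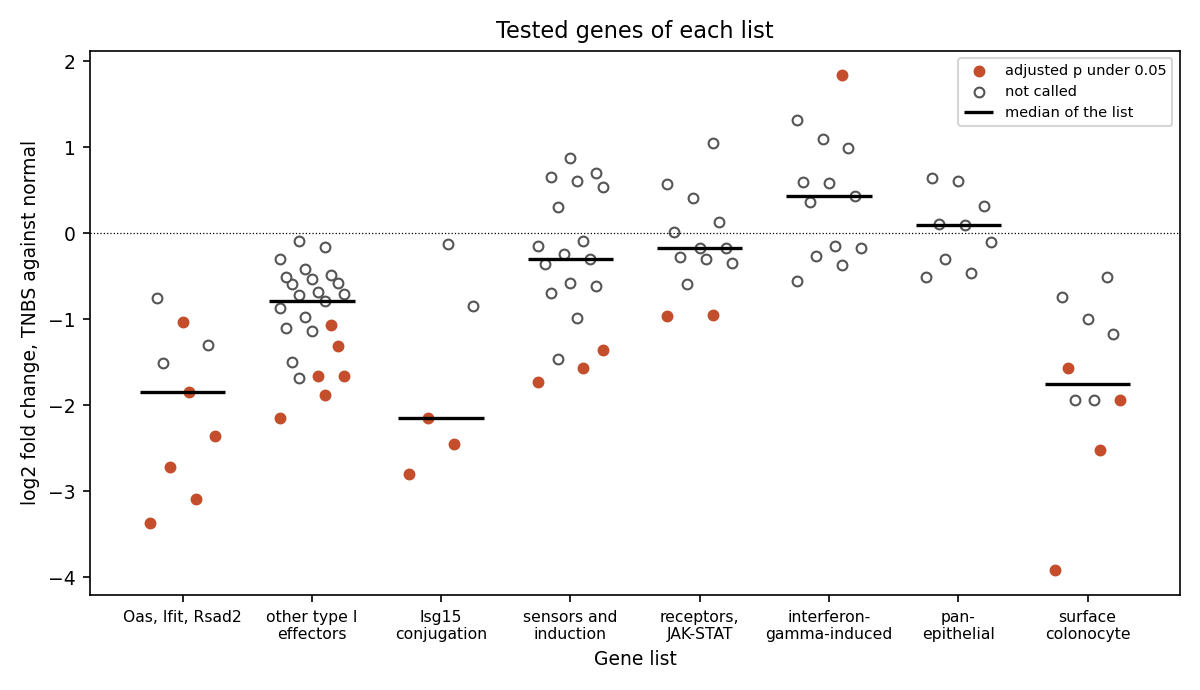
Log2 fold change of every tested gene in the antiviral set, in 5 lists of interferon genes and in 2 lists of epithelial markers; filled points passed edgeR's test and bars are medians. Medians run from -2.15 for Isg15 conjugation and -1.85 for the antiviral genes to 0.43 for genes induced by interferon-gamma, and surface colonocyte markers have a median of -1.76.

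Epithelial markers were present in every library, as labelled colon tissue would hold. The 9 pan-epithelial markers summed to 8510 to 9539 CPM in normal and 7393 to 8235 CPM in TNBS colon. None passed, and their median was 0.09 on the log2 scale, with 4 negative and 5 positive. The furthest from 0 were Cldn3 at 0.64 and Cldn4 at 0.61, both with overlapping groups. Epcam at -0.51 and Cdh1 at -0.47 were lower in TNBS colon without overlap. With counts scaled to these markers, which raised the median of all genes to 0.22, 6 of 9 antiviral genes were still called lower (0.842% of all genes), the same 6 as above, with a median of -1.64. Markers of surface colonocytes, the mature cells next to the lumen, moved with the antiviral genes: 4 of 10 fell (the membrane protein Ceacam20, the sodium-proton exchanger Slc9a3, the water channel Aqp8 and the carbonic anhydrase Car4), all 10 were negative with a median of -1.76, and their sum was 5449 to 9360 CPM in normal and 2280 to 5263 CPM in TNBS colon. Emp1 and Cyp2c55 held much of this sum, at means of 1893 and 1553 CPM in normal and 948 and 932 CPM in TNBS colon. Their groups overlapped, and Cyp2c55 was at 2050 CPM in TNBS replicate 3. An alternative chosen after seeing the data scaled counts to the sum of all 10 markers, which raised the median of all genes to 1.31. Oas3, Oasl2 and Ifit1 were then called lower (3 of 9, with 0.368% of all genes). Oas1a and Ifit2 turned to 0.26 and 0.44 (edgeR adjusted p = 0.684 and 0.489). Whether fewer surface colonocytes had a part in the fall of the antiviral transcripts was not tested.

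Markers of other cells had these values. Goblet cell markers had 2 of 8 genes lower (the mucus proteins Clca1 at -6.06 and Fcgbp at -4.48 on the log2 scale), summing to 37810 to 69310 CPM in normal and 4171 to 14230 CPM in TNBS colon. B and plasma cell markers had 0 of 8 called and 7 negative, with sums of 1750 to 2669 and 385 to 978 CPM. Jchain held most of these sums, at means of 2097 and 544 CPM. Ms4a1, at -2.15, was at 44.15, 2.448 and 0.1009 CPM in normal and 2.545, 2.715 and 5.286 CPM in TNBS colon. Its negative value thus rests on normal replicate 1 alone. Smooth muscle markers had 1 of 8 lower (Synm at -1.89), with sums of 7193 to 9609 and 3713 to 5982 CPM. Higher were 4 of 7 neutrophil markers (S100a9, S100a8, Mmp8 and Cxcr2), at log2 fold changes of 4.70 to 7.74. These 4 had at most 10 counts in any normal library, so the size of their changes is uncertain. Csf3r had at most 6 counts in any library and was not tested. The neutrophil sums were 2.18 to 3.22 and 55.9 to 126 CPM. Macrophage markers had 2 of 9 higher (Fcgr3 and Cd14), with overlapping sums of 241 to 279 and 223 to 407 CPM. Of these 9, 6 were positive and 3 negative: Cx3cr1 at -1.07 without overlap, Adgre1 at -0.52 and Mrc1 at -0.27. Csf1r was at 0 in the normal libraries. Endothelial markers had 2 of 8 higher (Cdh5 and Vwf), with sums of 204 to 215 and 353 to 559 CPM. General leukocyte markers (0 of 8 called; 216 to 519 and 152 to 327 CPM), T and NK cell markers (0 of 9; 22.6 to 37.6 and 43.7 to 89.9 CPM) and fibroblast markers (0 of 8; 2264 to 2474 and 876 to 3882 CPM) had no gene past the threshold in edgeR's test. Their genes furthest from 0 were Laptm5 (-0.81) and Ptprc (-0.51), Gzma (2.44) and Gzmb (2.27), and Dcn (0.57) and Dpt (-0.54). Plasmacytoid dendritic cells, a known source of type I interferon, had 0 of 5 tested markers called (Tlr9 at -1.47 and Ly6d at -1.31 were furthest from 0). Klk1, the tissue kallikrein gene, held most of their summed level, at 652 to 994 CPM in normal and 433 to 571 CPM in TNBS colon; the other 5 markers with a row summed to 11.2 to 32.9 and 5.49 to 19.4 CPM. The defining marker Siglech had 22, 1 and 20 counts in normal and 4, 6 and 6 in TNBS libraries. The part of these cells in the antiviral result was not tested.

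Some genes outside the set followed the same profile across the 6 libraries. Likeness was measured as the root mean square difference between a gene's centred log2 CPM and the median centred profile of the antiviral genes, over 12239 other genes with a mean log2 CPM of at least 1. The 8 closest were Zbp1 at 0.15, Herc6 at 0.22, Clic5 at 0.25, Mier3 at 0.26, Tsga10 at 0.27, Ifih1 at 0.28, and Rgs13 and Anxa13 both at 0.30, where the median of all genes compared was 1.06. Of the antiviral genes themselves Oasl1 lay closest to the common profile (0.27) and Oas3 furthest from it (0.91). Zbp1, Herc6 and Ifih1 are interferon-induced genes of the lists above. The other 5 are on none of these lists: Clic5, a chloride intracellular channel protein, was at 322, 377 and 429 CPM in normal and at 70.3, 94.6 and 121 CPM in TNBS colon (edgeR adjusted p = 0.0123), and Anxa13, an annexin of the gut epithelium, went from 26.0 ± 3.70 to 6.23 ± 3.23 CPM (SD, n = 3; edgeR adjusted p = 0.0335). With 6 libraries in 2 groups, any gene with a fall of like size scores well on this measure.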

How the data were processed

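The authors deposited 1 table of read counts per gene and library for 3 normal and 3 TNBS colon samples, per the file headers; a second set of 6 columns, normalized by edgeR per the file headers, was not used. Per the submitters' processing notes, CASAVA 1.8, HISAT2 and build mm10 were used; no source used here names the counting tool, the annotation or the strand setting. All 16906 rows are marked protein-coding. Symbols, exon lengths and gene coordinates are from GENCODE vM21 (GRCm38, the build of mm10); of the rows, 16732 have a symbol there, and 833 of these differ from the table's own.

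Low counts were removed by filterByExpr (min.count 10, min.total.count 15); the rest were scaled by TMM and tested across the whole table with edgeR 4.0.16 (R 4.3.3; glmQLFit and glmQLFTest, two-sided, group as the only term), with Benjamini-Hochberg adjustment over 14126 genes and a threshold of 0.05. Standard errors come from the F statistic (size of the log2 fold change over the root of F). Alternatives used DESeq2 1.42.0, limma 3.58.1, other scalings, no filter, the replicate number as a block, and fewer libraries. Totals of 15185569 to 23380492 counts make 3 counts equal to 0.131 to 0.194 CPM, which covers counting error only. The fits were also run on simulated counts whose spread was estimated from these libraries. That run checks the code alone and says nothing on single libraries that stand apart.

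The genes and the lists were chosen with earlier results of these data known. Beyond the 9 genes, the text names all tested genes of their families, up to 5 called genes of each list with the smallest p (or, with none called, the 2 furthest from 0) and the 8 genes closest in profile; genes named for their role or in counts are additions. A gene that the rule names is left out and not reported here. Over all tested genes, libraries of the same number did not deviate together (r from 0.00547 to 0.0354). Among the 9 genes, replicate 3 was the highest normal library for 7 and the highest TNBS library for 8. Replicate 2 was the lowest normal library for 7 and the lowest TNBS library for 6. Whether the replicate numbers pair samples is not known.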

Additional observations from a re-analysis of the deposited data

How the results depend on the processing

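In the 17 alternatives the 9 genes kept a negative log2 fold change in all but 2 of 153 values, which were Oas1a at 0.26 and Ifit2 at 0.44 with surface colonocyte marker scaling; 4 of the 10 markers used for that scaling fell themselves. Of the 153, 119 stayed on the same side of the threshold, 28 lost the call and 6 gained it. The number of genes called lower, 6 as reported, was 6 with RLE, total count or pan-epithelial marker scaling and with limma-voom. It was 7 with no filter on low counts and 8 with DESeq2. With neighbouring relatives summed it was also 6, with sums standing for Oas1a, Ifit1 and Ifit3. It was 3 with surface colonocyte marker scaling, 5 with TNBS replicate 2 alone and 2 with TNBS replicate 1 alone as the TNBS group, and 0 to 7 when each library was left out in turn; the cause was not tested, beyond fewer samples in the last. In a fit with the replicate block 8 were called lower (207 of all genes tested) and 0 higher (153 of all genes tested). The count called higher was 0 in every alternative run. Over all genes tested, it ran from 7 without normal replicate 2 to 5611 with surface colonocyte marker scaling. Ifit2 passed in none of the 17 alternatives (adjusted p from 0.112 to 0.489). Total count scaling moved the median of all genes to 0.15. Across all genes, DESeq2 called 668 higher and 645 lower, against 128 and 161 by edgeR as reported. Depth limits low genes such as Mx1, with 4 counts in TNBS replicate 2.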

Other observations

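The annotations that the table carries give 8 of the 9 genes, all but Oas1a, the term defense response to virus. Of the other 62 tested genes with that term, 5 were called lower and 4 higher (edgeR adjusted p under 0.05), and the median log2 fold change was 0.07. For the term response to virus, carried by 7 of the 9, the other 24 tested genes had 3 lower and 4 higher and a median of -0.18. These terms were looked up after the values were known.

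The ISRE core, present in 3.99% of all genes with a window, was found in 9 of 12 interferon-gamma-induced genes with a window. That list had a median log2 fold change of 0.43. It was in 5 of 7 relatives of the antiviral families and in 5 of 19 other interferon-induced effectors. Among receptor and JAK-STAT genes 2 of 11 held it, and among pan-epithelial markers 1 of 7. Surface colonocyte markers had 0 of 10, which is close to the share over all genes. Oasl1, Oasl2 and Ifit2, without a match in their windows, had log2 fold changes of -1.85, -2.72 and -0.75.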
